A study of Homo sapiens with 4 samples.

Results

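Heat shock chaperones of the cytosol and the mitochondrion were followed in 786-O, a human clear cell renal carcinoma line without functional VHL, before and after VHL was restored. The genes were chosen by symbol as HSF1, HSPA1A, HSPA1B, HSPA8, HSPH1, HSP90AA1, DNAJB1, HSPB1, HSPD1 and HSPE1. Of these 10 genes, 8 had a row among the 12912 genes of the count table, and HSF1 and HSPA1A were not analysed here. Both groups carry the triple reporter (GFP, luciferase and thymidine kinase) and were grown in RPMI1640 with 10% serum, with no heat or drug treatment named. The 786-O-Ctrl cells have the genotype given as wild type (VHL-null), and the 786-O-VHL cells express HA-tagged VHL from a retroviral vector. There were 2 RNA-seq libraries per group, and since nothing says that they came from separate cultures, p-values measure only the spread between these libraries. Each group is 1 subline, so the comparison is between these sublines.

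Cells keep their proteins folded with chaperones that bind exposed hydrophobic stretches. In the cytosol, HSP70 proteins take up client chains handed over by J-domain proteins, HSP110 proteins exchange their nucleotide, and HSP90 finishes the folding of kinases, receptors and other clients. Small heat shock proteins hold unfolded chains without ATP, and HSPD1 and HSPE1 form the folding chamber of the mitochondrial matrix. HSF1 is the transcription factor that raises many of these genes in stress by binding heat shock elements, inverted repeats of the unit NGAAN, and it also keeps up chaperone expression in many cancer cells.

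Library totals ran from 2807779 counts in 786-O-VHL replicate 1 to 22141263 in the deeper 786-O-Ctrl library, and both 786-O-Ctrl columns carry the same replicate number and are told apart by depth. Levels are given as CPM, counts per 1000000 counts of the library after scaling by edgeR's TMM factor, and 3 counts came to 1.02 CPM in 786-O-VHL replicate 1 and to between 0.142 and 0.199 CPM in the others. VHL itself was at 42.9 and 43.9 CPM in 786-O-Ctrl and at 178 and 163 CPM in 786-O-VHL. Its log2 change, by which the log2 ratio of 786-O-VHL over 786-O-Ctrl is meant throughout, was 1.96 with a standard error (SE) of 0.0706 (edgeR FDR = 2.86e-19, where FDR is the p adjusted over all genes), and the counts do not separate the vector's transcript from the cells' own. The renal markers PAX8, PAX2, VIM, KRT8, KRT18 and CDH2 were all present, at between 27.6 and 1699 CPM, and their summed level was 3307 and 3297 CPM in 786-O-Ctrl and 1933 and 1935 CPM in 786-O-VHL. VIM fell most in CPM, from 1669 and 1699 to 751 and 709, and PAX8, KRT8 and PAX2 were also lower. KRT18 (162 and 154 against 153 and 141) and CDH2 (392 and 391 against 351 and 379) changed less. Of the markers of other cell types, COL1A1 was at 5.72 to 7.12 CPM, PDGFRB at 3.28 to 6.12 CPM and PECAM1 at 0.266 to 0.427 CPM. The part of these marker changes in the results was not tested.

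The sequences that heat shock factor binds were read from the 250 bases before each start site in RefSeq's promoter table (GRCh38.p14) and show how the chaperone promoters differ. All 8 symbols matched, with 12 start sites. The identifier counted for HSPA1B is not in the GRCh37 annotation used here, so its position was found by symbol. That promoter may belong to another entry of the gene than the row counted. A core was counted where GAANNTTC or TTCNNGAA occurred, each its own reverse complement, so that both strands were covered. Cores may overlap, and an overlapping pair makes a 3-unit element (GAANNTTCNNGAA or TTCNNGAANNTTC). A core was found before 6 of the 12 start sites, against 11.6% of all 35116 promoters, and a 3-unit element before 3 of the 12, against 0.441% of all promoters. The matches are given below as stretches of 30 bases, 5′ to 3′ on the strand of the gene, with the cores in capitals, and their positions are those of the same letters in GRCh37, the build of the count table.
HSPA8, near element: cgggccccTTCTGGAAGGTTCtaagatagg
HSPA8, far element: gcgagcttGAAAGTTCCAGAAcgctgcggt
HSP90AA1: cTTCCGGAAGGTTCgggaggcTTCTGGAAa
HSPD1: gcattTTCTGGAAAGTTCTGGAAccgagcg
DNAJB1, near core: ggcgggctctgGAAGCTTCcgccggacggg
DNAJB1, far core: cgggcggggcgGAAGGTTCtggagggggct
HSPB1: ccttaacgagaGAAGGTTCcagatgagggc
HSPA1B: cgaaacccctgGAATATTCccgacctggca

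The near element of HSPA8 (chr11:122932878-122932907, minus strand) spanned 43 to 55 bases before the start, and the far one (chr11:122933053-122933082) lay 218 to 230 bases before it. The HSP90AA1 stretch (chr14:102553441-102553470, minus strand) held 3 cores at 61 to 88 bases before the second of its start sites, and no core was found before the other. The HSPD1 stretch (chr2:198364785-198364814, minus strand) held 3 overlapping cores, of which the last ended 228 bases before the second HSPD1 start site. Its cores also lay 55 bases from the annotated start of HSPE1, which runs the other way on the same chromosome, while the window before the RefSeq start of HSPE1 held no core. DNAJB1 had separate cores before its second start site (chr19:14629238-14629267 and chr19:14629268-14629297, minus strand), HSPB1 a single core 175 to 182 bases before its start (chr7:75931797-75931826, plus strand) and HSPA1B a single core 98 to 105 bases before its start (chr6:31795399-31795428, plus strand). In the GRCh37 annotation the HSPA8 and HSPD1 stretches lie in exons of longer transcripts of these genes, those of HSP90AA1 and DNAJB1 in introns, and those of HSPB1 and HSPA1B in no gene. HSPH1 had none in this window, which says only that these letters were not there. A match is not evidence that a factor was bound in these cells.

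**Figure D1:**
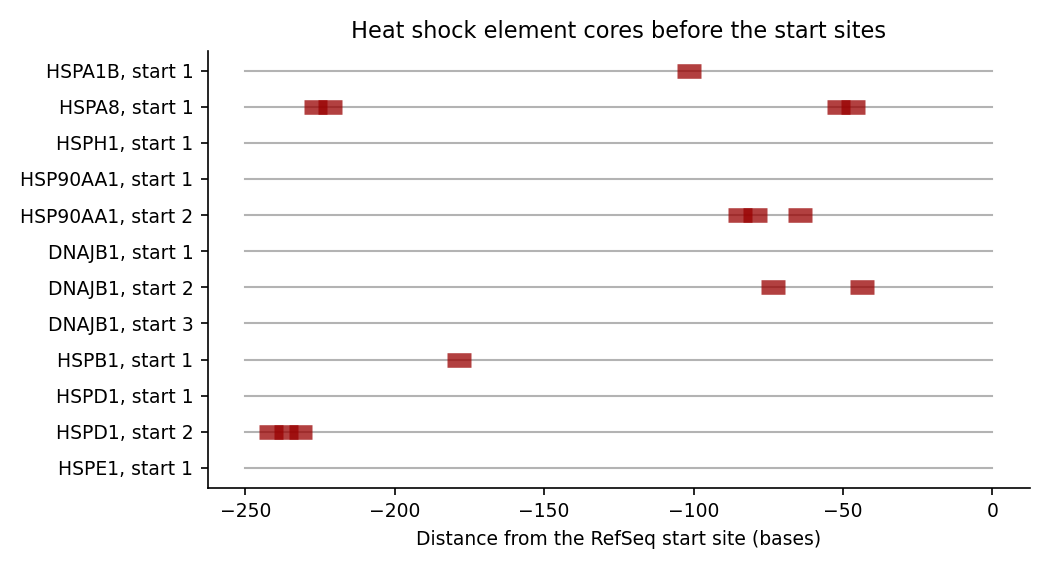
Positions of heat shock element cores (red, overlapping where darker) in the 250 bases before each RefSeq start site of the 8 chaperone genes with a row, in bases from the start. HSPA8 and HSPD1 hold overlapping cores, HSP90AA1 holds 3 cores before its second start, and 6 of the 12 windows hold none.

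Restoring VHL went with lower chaperone mRNA. With an edgeR FDR under 0.05, all 7 chaperone genes that had enough counts to be tested were lower, as were 31.9% of the 12335 genes tested, and 0 were higher, against 32.6% of all genes (0 also with DESeq2 and at an unadjusted p under 0.05). Their median log2 change was -1.54, and that of all genes tested was 0.02. In all 7, both 786-O-VHL libraries lay below both 786-O-Ctrl libraries, which was so for 39.2% of all genes tested. The changes were of unequal size, from 1.32-fold for DNAJB1 to 5.50-fold for HSPA8. A log2 change under -1 at this FDR was reached by 5 of the 7, against 7.51% of all genes. HSPA8 alone also passed a fold change over 4 with FDR under 0.01, as 1.54% of all genes did in that direction. The 8 genes together took 0.534% and 0.508% of all counts in the 786-O-Ctrl libraries and 0.209% and 0.194% in the 786-O-VHL libraries. With 2 libraries against 2, a two-sided exact permutation test of a single gene cannot give a p under 0.333, and the FDR values draw on the spread of the other genes in the edgeR fit. In bulk RNA, fewer cells with a transcript and less of it per cell cannot be told apart.

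**Figure D2:**
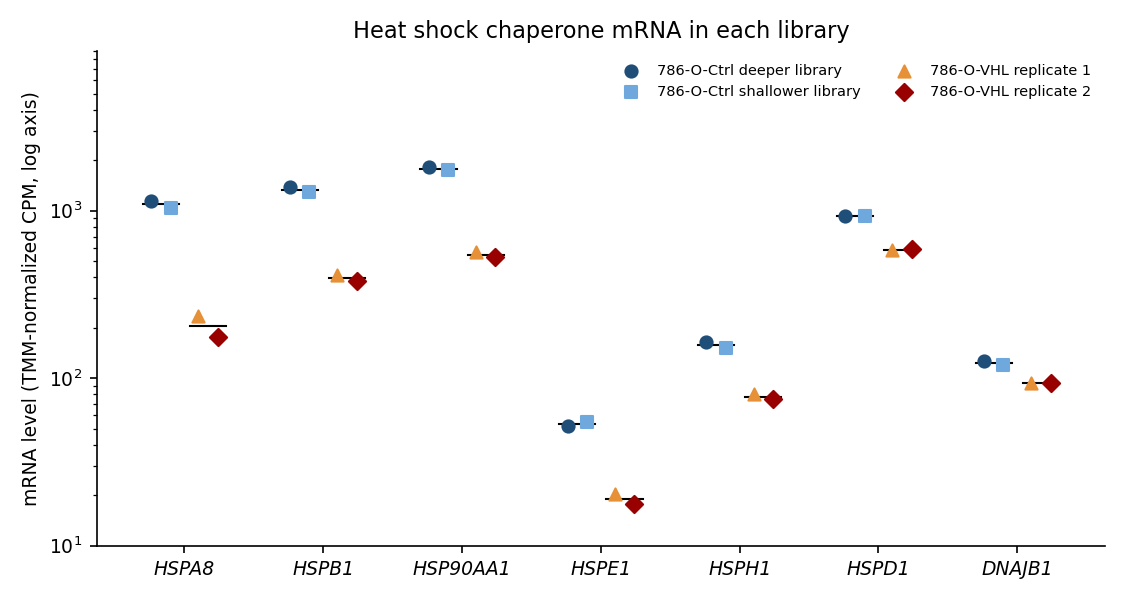
Level of the 7 tested chaperone mRNAs in each of the 4 libraries, in TMM-normalized CPM on a log axis, with a bar at the mean of each group. Both 786-O-VHL libraries sit below both 786-O-Ctrl libraries for each gene, with the widest gap for HSPA8 (1149 and 1030 against 236 and 175 CPM) and the narrowest for DNAJB1.

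HSPA8 encodes the HSP70 protein that cytosols hold without stress, which folds new chains, uncoats clathrin vesicles and carries proteins to lysosomes. HSPA8 (ENSG00000109971.14, GRCh37 chromosome 11 from 122928197 to 122933938, minus strand) had 24195 and 15501 counts in 786-O-Ctrl against 696 and 2953 counts in replicates 1 and 2 of 786-O-VHL. On the CPM scale, 786-O-Ctrl was at 1149 and 1030, and 786-O-VHL at 236 and 175. The groups lay far apart, while the 786-O-VHL libraries differed from each other more than those of any of the other 6 genes did. The log2 change was -2.46 (SE 0.0882, 95% interval -2.64 to -2.28, edgeR FDR = 2.61e-19). By the size of its fall it was number 114 from the bottom of the 12335 genes, and by mean CPM it went from rank 93 among all genes in 786-O-Ctrl to rank 881 in 786-O-VHL. Without 786-O-VHL replicate 2 its log2 change was -2.21, and without replicate 1 it was -2.64. The annotation holds 17 pseudogenes named after HSPA8, none of which has a row in the count table, and 3 small nucleolar RNA genes inside it on the same strand, so reads may be shared with them.

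HSPH1, an HSP110 protein, exchanges the nucleotide of HSP70 and works with it to dissolve aggregates. HSPH1 (ENSG00000120694.19, chromosome 13 from 31709110 to 31736525, minus strand) was at 165 and 151 CPM in 786-O-Ctrl and at 80.4 and 74.6 CPM in 786-O-VHL. Its groups did not overlap, and its level fell to 49.0% of the 786-O-Ctrl mean. The log2 change was -1.05 (SE 0.0725, edgeR FDR = 4.03e-13).

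DNAJB1 is the J-domain protein that delivers clients to HSP70 and stimulates its ATPase. DNAJB1 (ENSG00000132002.8, chromosome 19 from 14625581 to 14671203, minus strand) was at 126 and 120 CPM in 786-O-Ctrl and at 93.3 and 93.1 CPM in 786-O-VHL. It changed least of the 7, with a log2 change of -0.40 (SE 0.0676, edgeR FDR = 7.8e-06). Within a library the ratio of HSPA8 counts to DNAJB1 counts was 9.14 and 8.56 in 786-O-Ctrl against 2.53 and 1.88 in 786-O-VHL, so that the HSP70 transcript fell more than that of its partner. These ratios do not depend on how libraries are scaled, and their difference was not tested. Genes on the opposite strand overlap DNAJB1 (2 genes), HSPA8 (1), HSP90AA1 (1), HSPD1 (3) and HSPE1 (1). The use of strand in the counting is not given in the sources used here.

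HSPA1B, one of the stress-inducible HSP70 genes, had 7 and 3 counts in 786-O-Ctrl and 1 count in each 786-O-VHL library. The counts were too few to test and no fold is given. The identifier of this row (ENSG00000212866.6) is not among the genes of the GRCh37 annotation used here. HSPA1A and HSPA1B are near-identical copies between which many reads may not be told apart, which was not examined here. The row is therefore not taken as a measure of inducible HSP70 in these cells.

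HSP90AA1, the inducible cytosolic HSP90, had more CPM than any other of the 8 genes in 786-O-Ctrl. HSP90AA1 (ENSG00000080824.18, chromosome 14 from 102547079 to 102606036, minus strand) was at 1820 and 1739 CPM in 786-O-Ctrl and at 567 and 526 CPM in 786-O-VHL. The libraries of a group lay close to each other and the groups far apart, with a log2 change of -1.71 (SE 0.0629, edgeR FDR = 4.22e-19). It took 0.173% and 0.167% of the counts in 786-O-Ctrl against 0.0595% and 0.0549% in 786-O-VHL.

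HSPB1 is a small heat shock protein that also binds actin filaments. HSPB1 (ENSG00000106211.9, chromosome 7 from 75931990 to 75933612, plus strand) was at 1381 and 1288 CPM in 786-O-Ctrl and at 413 and 381 CPM in 786-O-VHL. The fall was close in size to that of HSP90AA1, with a log2 change of -1.76 (SE 0.0649, edgeR FDR = 4.45e-19). No annotated gene overlaps HSPB1 or HSPH1.

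**Figure D3:**
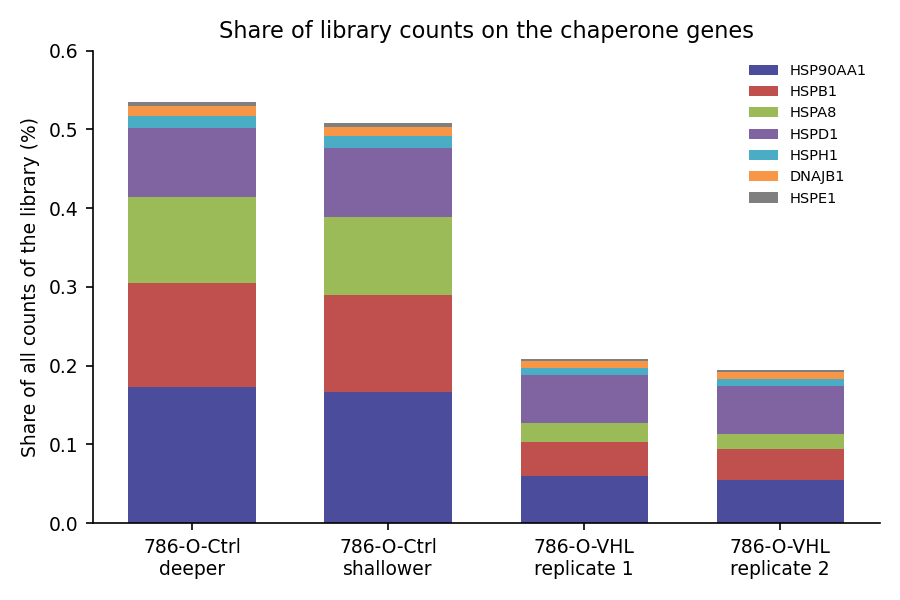
Share of all counts of each library that fell on 7 chaperone genes, in percent, stacked by gene. The stacks reach 0.534% and 0.508% in the 786-O-Ctrl libraries and 0.209% and 0.194% in the 786-O-VHL libraries, with HSP90AA1, HSPB1 and HSPA8 shrinking most in percentage points.

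HSPD1 and HSPE1, the chamber and the lid of the mitochondrial chaperonin, start close together on chromosome 2 and are read in opposite directions. HSPD1 (ENSG00000144381.17, from 198351308 to 198381461, minus strand) was at 926 and 925 CPM in 786-O-Ctrl and at 578 and 590 CPM in 786-O-VHL, a log2 change of -0.66 (SE 0.0595, edgeR FDR = 1.13e-10). HSPE1 (ENSG00000115541.11, from 198364864 to 198368173, plus strand) was at 51.7 and 54.9 CPM in 786-O-Ctrl and at 20.4 and 17.7 CPM in 786-O-VHL, a log2 change of -1.54 (SE 0.104, edgeR FDR = 2.72e-13). Both were lower, and the ratio of HSPD1 counts to HSPE1 counts rose from 17.9 and 16.9 in 786-O-Ctrl to 28.4 and 33.3 in 786-O-VHL, a difference that was not tested. HSPE1 rests on 60 and 298 counts in 786-O-VHL. HSPE1 lies inside the annotated span of HSPD1 on the opposite strand, and the readthrough gene HSPE1-MOB4 covers part of it on the same strand. The annotation holds 26 pseudogenes named after HSPE1 and 18 named after HSPD1, none with a row in the table. The level of HSPE1 and its ratio to HSPD1 are therefore uncertain.

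Levels between genes were compared as CPM per kilobase of exon. In 786-O-Ctrl the order was HSPB1 (822 ± 40.5, SD, n = 2), HSP90AA1 (349 ± 11.2), HSPA8 (225 ± 17.4), HSPD1 (121 ± 0.0463), HSPE1 (29.2 ± 1.24), HSPH1 (18.8 ± 1.26) and DNAJB1 (15.02 ± 0.466). Each pair of neighbours in this order differed by more than the larger of their SDs. In 786-O-VHL, HSPB1 (244.5 ± 13.7) and HSP90AA1 (107 ± 5.67) stayed on top, and HSPA8 (42.4 ± 8.85) came below HSPD1 (76.5 ± 1.09). DNAJB1 (11.4 ± 0.0199), HSPE1 (10.4 ± 1.03) and HSPH1 (9.24 ± 0.49) ended close together, and DNAJB1 and HSPE1 differed by less than the SD of HSPE1. With the length of the canonical transcript in place of all exons, a choice made after seeing the data, HSPH1 and DNAJB1 changed places in 786-O-Ctrl, and HSPD1 (260.1 CPM per kilobase) came above HSP90AA1 (169) in 786-O-VHL. By that length DNAJB1 (41.56), HSPE1 (34.16 ± 3.36) and HSPH1 (14.78) did not end close together in 786-O-VHL. DNAJB1 and HSPE1 then differed by more than the SD of HSPE1.

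Close relatives in other compartments moved by different amounts, and those named in this paragraph were picked as relatives after their values were seen. HSPA9, the HSP70 of the mitochondrial matrix, was at 464 and 465 CPM in 786-O-Ctrl and at 678 and 713 CPM in 786-O-VHL, a log2 change of 0.59 (SE 0.0602, edgeR FDR = 1.6e-09). HSPA5, the HSP70 of the endoplasmic reticulum, was at 1338 and 1298 CPM in 786-O-Ctrl and at 1456 and 1612 CPM in 786-O-VHL, a log2 change of 0.22 (SE 0.0613, edgeR FDR = 0.00244). Without the deeper or the shallower 786-O-Ctrl library the HSPA5 call was lost, at edgeR FDR = 0.0835 and 0.163, and without 786-O-VHL replicate 2 its log2 change was 0.14. In raw counts of the same library, HSPA8 stood at 2.48 and 2.21 times HSPA9 in 786-O-Ctrl and at 0.348 and 0.246 times HSPA9 in 786-O-VHL, so the order of these HSP70 transcripts turned over. HSPA4, an HSP110 protein of the cytosol like HSPH1, was at 296 and 293 against 277 and 268 CPM, a log2 change of -0.12 that did not pass the test (edgeR FDR = 0.103) and was 0.0176 with library totals alone, while without 786-O-VHL replicate 1 it was -0.14 and passed (edgeR FDR = 0.0123).

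The 4 HSP90 genes were all lower, and HSP90B1 and TRAP1, like the relatives above, were picked after their values were seen. HSP90AB1, the constitutive cytosolic HSP90, was at 2460 and 2426 CPM in 786-O-Ctrl and at 1150 and 1058 CPM in 786-O-VHL, a log2 change of -1.15 (SE 0.0609, edgeR FDR = 1.35e-15). HSP90B1 of the endoplasmic reticulum fell by 1.07 on the log2 scale (SE 0.0609) and TRAP1 of the mitochondrion by 0.31 (SE 0.0733), with edgeR FDR values of 6.27e-15 and 0.000581. For TRAP1 the log2 change was -0.49 without 786-O-VHL replicate 2 and -0.18 with library totals alone. HSP90AB1 counts were 1.35 and 1.39 times those of HSP90AA1 in 786-O-Ctrl against 2.03 and 2.01 times in 786-O-VHL.

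**Figure D4:**
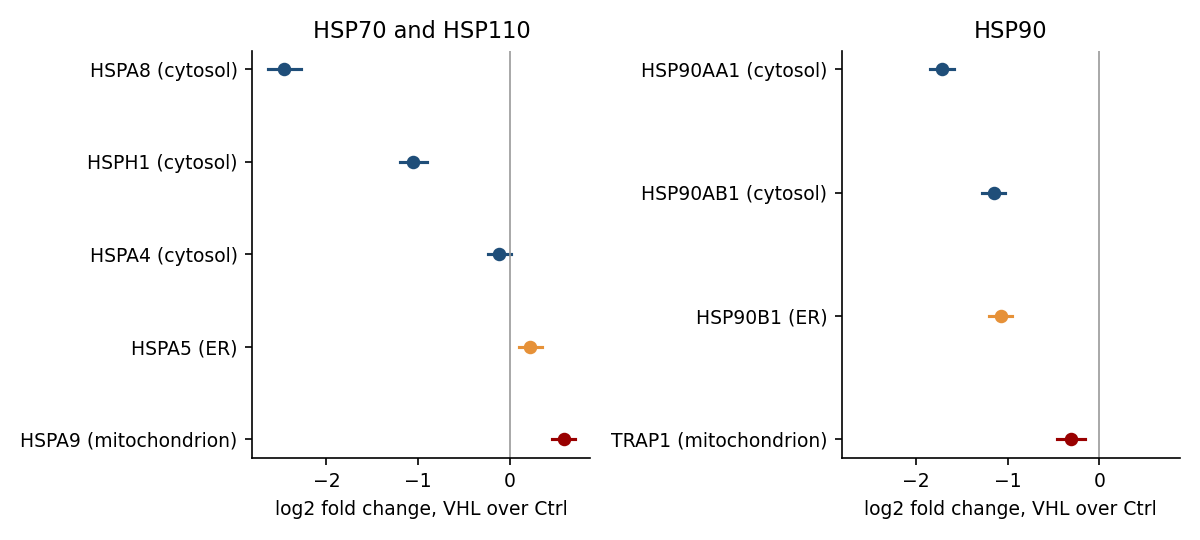
Log2 changes of selected HSP70 and HSP110 genes (left) and of HSP90 genes (right), 786-O-VHL over 786-O-Ctrl. Lines are 95% intervals from the edgeR fit, and colors give the compartment of the protein. Other HSP70 and HSP110 genes are not shown. Among them, named after their values were seen, are HSPA4L (-0.51, called lower), HSPA13 (0.09, not called) and HSPA14 (0.15, not called). HSPA8 lies at -2.46 while HSPA9 lies at 0.59, and the 4 HSP90 genes lie between -1.71 and -0.31.

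The wider chaperone network was described with hand-written lists, whose counts are to be read against the 31.9% of all genes tested that were lower and the 32.6% that were higher. Of 8 tested HSP70, HSP110 and HSP90 relatives outside the 10 genes, 5 (62.5%) were lower and 0 were higher at FDR under 0.05, with a median log2 change of -0.53 (edgeR, with 0 higher also in DESeq2 and at an unadjusted p under 0.05, but 2 with library totals alone). HSP90AB1 and HSPA2 (log2 change -1.67, SE 0.268) were among those that fell. HSPA12B had 19 and 12 counts in 786-O-Ctrl against 0 and 1 in 786-O-VHL and passed the filter on low counts only through 786-O-Ctrl, and without it, a choice made after seeing the data, 4 of 7 relatives were lower, with a median of -0.51. Of 23 tested nucleotide exchange factors and HSP90 cochaperones, 16 (69.6%) were lower and 3 (13%) were higher, with a median of -0.49. With library totals alone 13 were lower, and after thinning to the shallowest library 11 were. CACYBP, AHSA1 (which activates the HSP90 ATPase) and FKBP4 fell most, with log2 changes of -1.66, -1.27 and -1.11, and BAG5 and BAG1, nucleotide exchange factors of HSP70, rose by 0.55 and 0.38. CACYBP was at 175 and 175 CPM in 786-O-Ctrl and at 55.3 and 55.5 CPM in 786-O-VHL.

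Of 13 tested subunits of the CCT chaperonin, which folds actin and tubulin, and of its partner prefoldin, 10 (76.9%) were lower and 0 were higher, with a median of -0.55 (edgeR, with 0 higher also in DESeq2 and at an unadjusted p under 0.05, but 1 with library totals alone). CCT5, CCT3 and VBP1 led with -1.11, -0.84 and -0.72. Among 15 tested J-domain proteins, 6 (40%) were lower and 2 (13.3%) were higher, with a median of -0.01, so that the share lower was near that of all genes. DNAJC9 (-1.18), DNAJC8 (-0.87) and DNAJB12 (-0.84) fell, and DNAJB2 (0.46, and 0.25 without 786-O-VHL replicate 2) and DNAJB6 (0.19) rose. With library totals alone 7 of these J-domain genes were higher, and the rise of DNAJB6 was lost with DESeq2, at FDR = 0.062, and without either 786-O-Ctrl library or without 786-O-VHL replicate 2, at edgeR FDR = 0.132 to 0.204. In each of those 3 edgeR fits 1 J-domain gene was higher.

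Few of the other small heat shock proteins could be tested. Of 4, 1 (25%) was lower (HSPB11, also a part of the intraflagellar transport complex, -0.86) and 2 (50%) were higher (CRYAB and HSPB8), which is too few to set against the shares of all genes. Without 786-O-VHL replicate 2, HSPB11 was at -0.41. CRYAB, which holds unfolded chains much as HSPB1 does, was at 1.57 and 1.06 CPM in 786-O-Ctrl and at 6.79 and 5.70 CPM in 786-O-VHL, on 20 and 96 counts in the latter, with a log2 change of 2.14 (SE 0.307, edgeR FDR = 6.88e-07). HSPB8, a partner of BAG3, rose by 0.64 (SE 0.087, edgeR FDR = 3.07e-07).

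Of 17 tested mitochondrial chaperones and quality-control proteases, 6 (35.3%) were lower and 7 (41.2%) were higher, shares near those of all genes, with a median of 0.07. With library totals alone 10 of the 17 were higher, where 5077 of all 12335 genes tested were higher in place of 4017. LONP1, a matrix protease, was at 273 and 263 CPM in 786-O-Ctrl and at 458 and 466 CPM in 786-O-VHL, a log2 change of 0.79 (SE 0.0612, edgeR FDR = 5.43e-12). DNAJC15 (1.23) and OMA1 (0.94) also rose, and HTRA2 (-0.77), DNAJC11 (-0.45) and CLPB (-0.45) fell. Among 12 tested chaperones of the endoplasmic reticulum, 9 (75%) were lower and 3 (25%) were higher, with a median of -0.83. CALR (-2.13), SDF2L1 (-1.76) and PDIA4 (-1.63) fell, and DNAJB9 (1.35) and HSPA5 (0.22) rose. Without either 786-O-Ctrl library 1 of the 12 was higher.

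Of 20 other genes known to be induced by heat shock factor, 11 (55%) were lower and 4 (20%) were higher, with a median of -0.55, and this list shares genes with those above. CACYBP, AHSA1 and HSP90AB1 fell most in it, and CRYAB, ZFAND2A (0.95) and SERPINH1 (0.31), the collagen chaperone, rose. Without 786-O-VHL replicate 2, ZFAND2A was at 0.57. With library totals alone 7 of the 20 were higher. Of 5 genes listed as heat shock factors or HSF1 regulators, 3 (60%) were higher and 1 (20%) was lower, which is too few to set against the shares of all genes. HSBP1, which binds HSF1 and restrains it, was at 206 and 210 CPM in 786-O-Ctrl and at 156 and 146 CPM in 786-O-VHL, a log2 change of -0.48 (SE 0.0653, edgeR FDR = 2.93e-07). HSF2BP (1.31), which is named for binding HSF2 and not HSF1, and HSBP1L1 (1.16) rose. HSF2, a paralog of HSF1 that is named here after its value was seen, lay at 0.31 (SE 0.130, edgeR FDR = 0.0372), a call that was lost with DESeq2 (FDR = 0.272), after thinning (edgeR FDR = 0.456) and without either 786-O-Ctrl library or 786-O-VHL replicate 2 (edgeR FDR = 0.164 to 0.377).

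**Figure D5:**
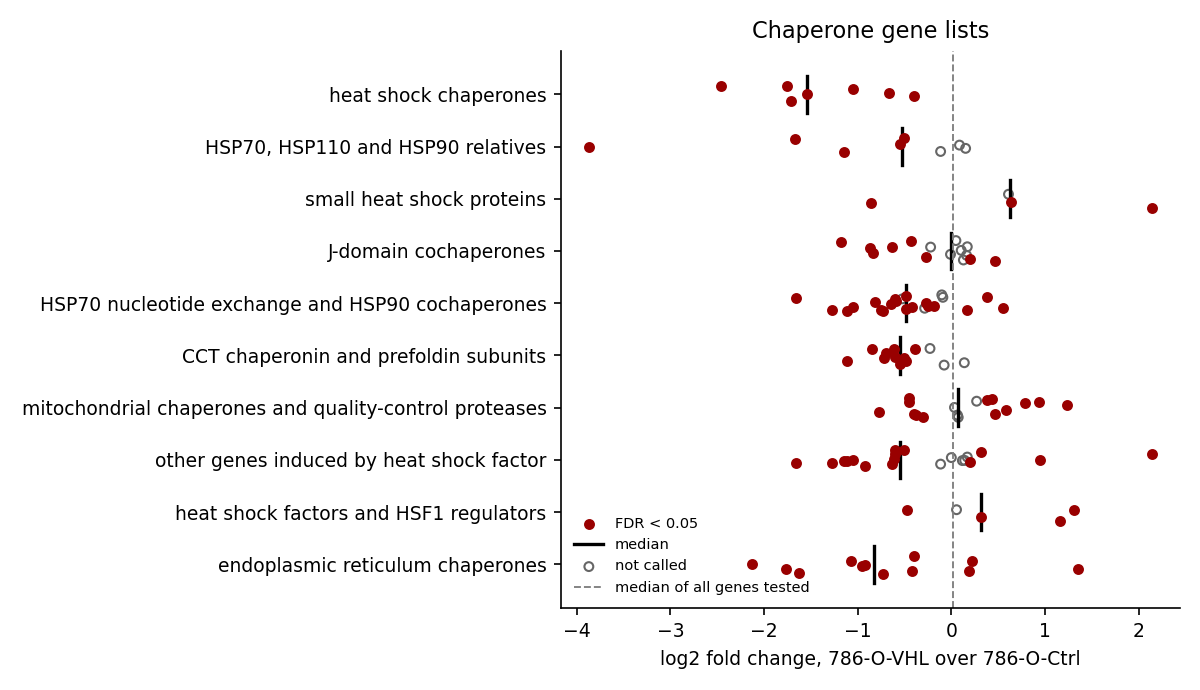
Log2 changes, 786-O-VHL over 786-O-Ctrl, of the tested genes of each chaperone list, filled where the edgeR FDR was under 0.05, with a black bar at the median of the list and a dashed line at the median of all genes tested (0.02). The 7 heat shock chaperones all lie below the line, and the point at -3.87 is HSPA12B, whose fitted value depends on the prior count since it had 0 and 1 counts in 786-O-VHL.

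The genes whose levels over the 4 libraries ran most like those of HSPA8 were LRRN4, SYT13 and KRT79. Likeness was the Euclidean distance between log2 CPM values centred on their mean (with 0.5 CPM added), which was 0.188, 0.204 and 0.22. LRRN4 was at 442 and 407 CPM in 786-O-Ctrl and at 81.8 and 72.6 CPM in 786-O-VHL. None of the 3 is in a chaperone list, and over 4 libraries this measure mostly reflects the difference between the groups.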

How the data were processed

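RNA of both 786-O sublines was sequenced on Illumina instruments. Reads were aligned to hg19, and the authors deposited raw counts per gene. The submitters' processing notes name CASAVA and STAR. The tool used for counting, the strand setting and the annotation were not given in the sources used here. Samples were grouped by title. Both 786-O-Ctrl columns carry the same number and were used without one. A repeated symbol took the identifier with most counts.

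Genes were tested in edgeR 4.0.16 under R 4.3.3 (filterByExpr with a minimum count of 10, TMM, quasi-likelihood F test, Benjamini-Hochberg adjustment over 12335 genes). CPM values use the TMM factors, and standard errors are those implied by F. Replicates differed by more than sampling noise (chi-square per degree of freedom 2.25 and 2.76). On counts simulated for this comparison over 12335 genes, edgeR recovered 87 of 100 genes changed 2-fold and 100 of 100 changed 8-fold, with 2 false calls. The simulation changed only 200 genes, equally up and down, with the same dispersion for all genes. That dispersion was set above the common dispersion of 0.00186 fitted to the data, so the share recovered may differ in the data. In the data 7956 genes were called, so the simulation does not give the rate of false calls or the effect of scaling there. Coordinates and lengths come from GENCODE on GRCh37, which held 12749 of the 12912 identifiers.

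The genes and lists were chosen with earlier results of these data known. Named from each list were up to 3 genes in each direction, those with FDR < 0.01 and the largest change, and genes outside this rule are said to be so where named. Alternatives were DESeq2 1.42.0, limma-voom 3.58.1, RLE factors, library totals, other filters, thinning to the shallowest library and leaving out each library. Protein sequences were not used here.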

Additional observations from a re-analysis of the deposited data

How the results depend on the processing

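All 7 tested chaperone genes were lower at FDR < 0.05 under DESeq2, limma-voom, RLE factors, library totals alone, no filter, at least 10 counts in every library, thinning to the shallowest library, and in each fit on 3 of the 4 libraries (77 values in all). The log2 change ranged from -2.64 to -2.21 for HSPA8 and from -0.44 to -0.27 for DNAJB1. Library totals alone moved the median of all genes by 0.13 on the log2 scale, with 3097 genes lower and 5077 higher against 3939 and 4017, and the changes of the 7 genes kept their direction. Of the 12335 genes tested, 550 passed a fold over 4 with FDR < 0.01 in place of 7956 at FDR < 0.05 alone. That count was 441 with DESeq2, 343 after thinning and 232 with at least 10 counts in every library. Among the lists, library totals alone called 2 HSP70, HSP110 and HSP90 relatives, 7 J-domain genes, 1 CCT or prefoldin subunit and 7 other heat shock factor genes higher, and HSPA4 had a log2 change of 0.0176 in place of -0.12. That setting also called 10 mitochondrial chaperones and proteases higher in place of 7. It called 13 nucleotide exchange factors and HSP90 cochaperones lower in place of 16, and thinning called 11 lower. With at least 10 counts in every library 3 of the relatives were lower, as fewer were tested, and DESeq2 called 1 J-domain gene higher. With each library left out in turn, between 1 and 3 J-domain genes and between 1 and 3 endoplasmic reticulum chaperones were higher, and the library left alone in its group was assumed to vary like the others. The cause of these shifts was not tested. Thinning moved OMA1 from 0.94 to 1.46, HSF2BP from 1.31 to 2.13, HSPB11 from -0.86 to -0.53 and DNAJB6 from 0.19 to 0.33 on the log2 scale, and library totals alone put HSPA5 at 0.36 and DNAJB6 at 0.33. HSPA12B lost its call without 786-O-VHL replicate 2 (edgeR FDR = 0.119), where the other library held no count. No paired analysis was possible because both 786-O-Ctrl columns carry the same replicate number. Summing HSPA1A with HSPA1B and scaling levels by coding length were not run. Depth is least in 786-O-VHL replicate 1, where 3 counts stand for 1.02 CPM (counting error only).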
